A study of Homo sapiens with 5 samples.

Results

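Aurora kinase A, encoded by AURKA, was followed at the transcript level together with its activators and partners in a human squamous cell carcinoma line of the tongue. The set was defined by name as 8 genes: AURKA, TPX2, BORA, PLK1, NEDD9, TACC3, AURKAIP1 and TDRD7. A gene was read from probe sets that name it alone, and its value was the median of those probe sets. By this rule 6 of the 8 genes had values, out of 18239 genes in all, and they rested on 18 probe sets. AURKAIP1 and TDRD7 were not analysed here.

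GFP-SAS cells, which carry green fluorescent protein, were exposed for 24 h to 1 of 5 treatments, and each treatment was measured on 1 array. The treatments were DMSO, 100 nM MLN8237 (alisertib, a small-molecule inhibitor of the Aurora A kinase), a non-targeting siRNA (siNT), 10 nM siAURKA-1 and 10 nM siAURKA-2. The dose of siNT can be read from the labels in more than 1 way and is not given here. All 5 arrays came from the same line, and the labels name no replicate culture, so no difference below has a replicate check and none was tested. Values are log2 signals that the authors had centred on each probe set's median over the arrays. They compare arrays for a gene and give no expression level, and levels cannot be ranked between genes.

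Aurora A drives centrosome maturation, spindle assembly and entry into mitosis. TPX2 binds the kinase on spindle microtubules and holds it in its active form. BORA is a cofactor through which Aurora A phosphorylates and activates the mitotic kinase PLK1, and PLK1 in turn promotes the destruction of BORA. NEDD9 (HEF1) is a focal adhesion scaffold that can also activate Aurora A at the centrosome, and TACC3 is an Aurora A substrate that stabilises spindle microtubules. Most of these genes are transcribed mainly in G2 and mitosis, when many promoters are derepressed through a cell cycle homology region, typically TTTGAA, and driven by NF-Y at CCAAT boxes. Bulk arrays cannot tell fewer cells in G2 and mitosis from less RNA per cell.

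The promoters of BORA and PLK1 are shown because the gene values of these genes, which act in 1 pathway, differed in MLN8237 minus DMSO (0.53 and 0.01). The PLK1 value is a median of probe sets that oppose each other there, at 0.45, -0.03 and -0.14. The sequences are from RefSeq on GRCh38.p14, plus strand, and hold the 250 bases before the annotated start (BORA chr13:72727673-72727922, PLK1 chr16:23678639-23678888). Capitals mark matches to TTTGAA, to its variant TTCGAA and to CCAAT, each searched on both strands, so that a CCAAT on the minus strand reads ATTGG. No marked matches overlap.
BORA: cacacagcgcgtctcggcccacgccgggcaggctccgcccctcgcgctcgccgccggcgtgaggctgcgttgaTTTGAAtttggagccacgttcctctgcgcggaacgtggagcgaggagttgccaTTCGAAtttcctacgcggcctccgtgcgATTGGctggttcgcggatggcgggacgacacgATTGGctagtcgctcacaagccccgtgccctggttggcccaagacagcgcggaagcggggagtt
PLK1: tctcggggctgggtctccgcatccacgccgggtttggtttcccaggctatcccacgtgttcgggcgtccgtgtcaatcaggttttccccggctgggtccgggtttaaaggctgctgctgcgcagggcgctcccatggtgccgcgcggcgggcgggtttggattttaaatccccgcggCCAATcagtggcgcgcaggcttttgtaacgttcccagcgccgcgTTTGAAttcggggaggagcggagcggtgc
TTTGAA lies at bases -177 to -172 of BORA and at bases -29 to -24 of PLK1, counted from the start. BORA also holds TTCGAA at -124 to -119 and 2 minus-strand CCAAT boxes, at -96 to -92 and at -64 to -60. PLK1 holds 1 CCAAT box, at -73 to -69. Of 35116 promoters in the table, cut to the same length, 13.3% held TTTGAA, 1.19% TTCGAA and 32.0% CCAAT, and 4.69% held both TTTGAA and CCAAT. The TACC3 window held none of the 3 motifs, and of 3 NEDD9 windows 1 held a CCAAT box. A match describes letters only.

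The transcript aimed at by the siRNAs was examined first. AURKA read 0.15 with DMSO, 0.64 with MLN8237, 0.00 with siNT, -3.36 with siAURKA-1 and -2.64 on the siAURKA-2 array. Both AURKA siRNA arrays were far below the other 3, and the MLN8237 array was the highest of the 5. The siAURKA-1 array kept 9.71% of the AURKA signal of siNT, and the siAURKA-2 array 16.0%. In the siAURKA-1 comparison 2 genes lay further below siNT than AURKA, and in the siAURKA-2 comparison 1 did. Against DMSO AURKA was the lowest of the 18239 genes with either siRNA.

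A second AURKA probe set also names the pseudogene AURKAP1 and was kept out of the gene value. It read 0.06 with DMSO, 0.54 with MLN8237, 0.00 with siNT, -4.52 with siAURKA-1 and -3.24 on the siAURKA-2 array. The order of the 5 arrays was the same as in the probe set of AURKA alone, and the distance between siNT and the siRNAs was larger. The siRNAs differed from each other by -0.72 in the AURKA probe set (siAURKA-1 minus siAURKA-2) and by -1.29 in the shared one. Among all genes, 5.00% were at least as far apart between the siRNA arrays as AURKA. The excess with MLN8237 over DMSO was the same in both probe sets, at 0.49.

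Of the 6 genes, AURKA alone was at least 2-fold from siNT with siAURKA-1, where 1.96% of all genes were that far apart in either direction. The same held with siAURKA-2, where 1.26% of all genes were. For the 5 partners the median difference was -0.10 in the former comparison and 0.00 in the latter, beside 0.00 over all genes in both. Their differences ran from -0.38 to 0.03 and from -0.11 to 0.12.

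**Figure D1:**
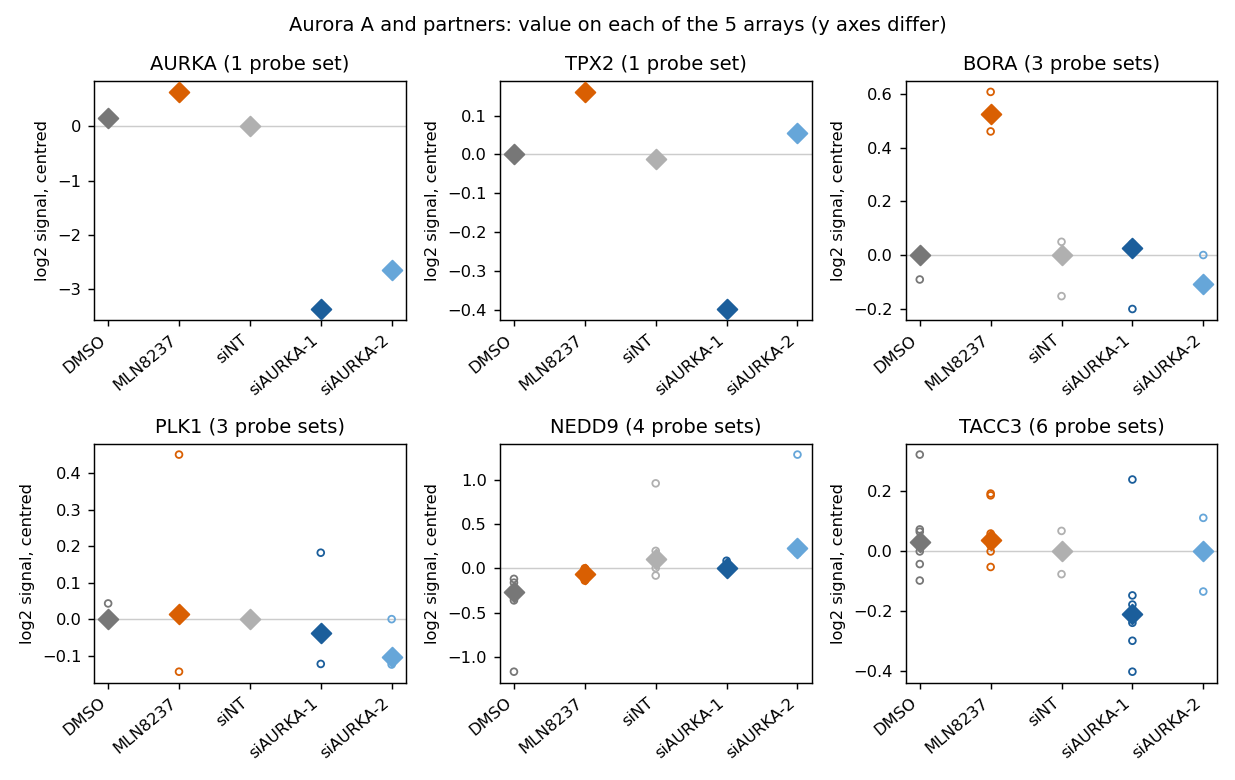
Log2 signal, centred per probe set, on each of the 5 arrays (x axis) for the 6 measured genes, with diamonds for the gene value and open circles for its probe sets; the y axes differ between panels. AURKA lies at -3.36 and -2.64 on the siRNA arrays, BORA at 0.53 on the MLN8237 array, and NEDD9 is lowest with DMSO.

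Among the activators, TPX2 was read by 1 probe set. Its values were 0.00 with DMSO, 0.16 with MLN8237, -0.01 with siNT, -0.40 with siAURKA-1 and 0.05 on the siAURKA-2 array. The siAURKA-1 array was the low one, and the other 4 lay close together. Relative to siNT, TPX2 was 1.31-fold lower (-0.38), a distance below siNT that 7.92% of all genes reached or passed. With siAURKA-2 the difference was 0.07, and between the siRNAs it was -0.45. The siNT and DMSO arrays differed by -0.01.

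BORA read highest with the inhibitor. Its values were 0.00 with DMSO, 0.53 with MLN8237, 0.00 with siNT, 0.03 with siAURKA-1 and -0.11 on the siAURKA-2 array. The MLN8237 array was the highest in 3 of 3 probe sets. Relative to DMSO, BORA was 1.44-fold higher with MLN8237 (0.53), with probe sets at 0.46, 0.53 and 0.70. Few genes lay as high in this comparison: 87 of the 18239, or 0.477%, were at or above BORA and 110, or 0.603%, at or above AURKA. Against siNT the difference was also 0.53 for BORA, with 3 of 3 probe sets higher, and 0.64 for AURKA. With the AURKA siRNAs, BORA was near siNT (0.03 and -0.11), and its probe sets disagreed in sign in both comparisons.

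NEDD9 followed another order. It read -0.26 with DMSO, -0.06 with MLN8237, 0.10 with siNT, 0.00 with siAURKA-1 and 0.23 on the siAURKA-2 array. The DMSO array was the lowest in 4 of 4 probe sets and the siAURKA-2 array the highest in 4 of 4. The largest part of this spread was between the controls, with siNT 0.36 above DMSO and 4.67% of all genes at or above that. Its differences with MLN8237 therefore depended on the control, at 0.20 against DMSO and -0.16 against siNT. With siAURKA-1 NEDD9 was -0.10 from siNT but 0.26 above DMSO.

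The NEDD9 probe sets differed widely in size. In 1 of the 4 the values were -1.17 with DMSO, -0.14 with MLN8237, 0.96 with siNT, 0.00 with siAURKA-1 and 1.29 on the siAURKA-2 array. That is a range of 2.46 over the arrays, against 0.29 to 0.61 in the other 3. The siNT minus DMSO difference was 2.13 in it and 0.04, 0.17 and 0.56 in the others. Without it the gene's difference between the controls was 0.17. RefSeq gives NEDD9 several starts, and which transcripts each probe set reads was not tested.

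PLK1, the kinase downstream of Aurora A and BORA, varied least of the 6 genes. It read 0.00 with DMSO, 0.01 with MLN8237, 0.00 with siNT, -0.04 with siAURKA-1 and -0.10 on the siAURKA-2 array, a range of 0.12. The 3 probe sets disagreed in sign. In the MLN8237 minus DMSO comparison 1 of them gave 0.45 and the others -0.03 and -0.14. In siAURKA-1 minus siNT they gave -0.12, -0.04 and 0.18. The gene value of PLK1 is thus a median of readings that oppose each other.

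TACC3, the spindle substrate, had 6 probe sets. It read 0.03 with DMSO, 0.04 with MLN8237, 0.00 with siNT, -0.21 with siAURKA-1 and 0.00 on the siAURKA-2 array. The siAURKA-1 array was the lowest in 5 of 6 probe sets, while in the sixth it was the highest. Relative to siNT the difference was -0.21 with siAURKA-1, and 14.8% of all genes were at or below that. In the 5 lower probe sets it ranged from -0.40 to -0.10, and in the sixth it was 0.24. With MLN8237 TACC3 differed from DMSO by 0.01, with 3 probe sets higher, 2 lower and 1 equal.

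**Figure D2:**
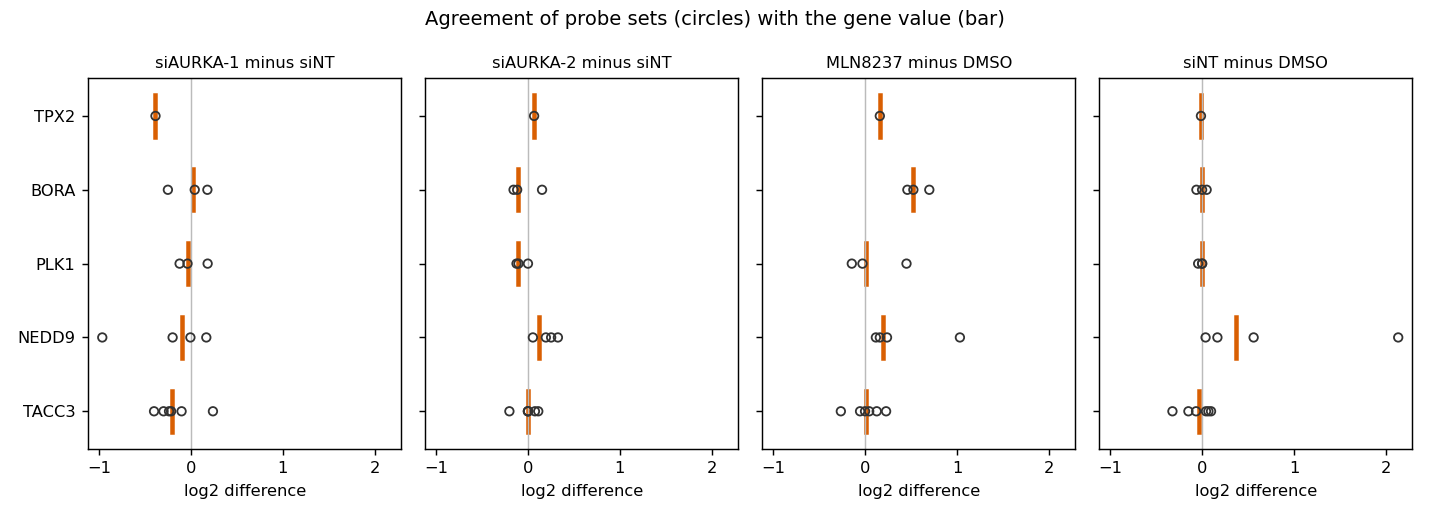
Log2 difference (x axis) of each probe set (circles) and of the gene value (bar) for the 5 AURKA partners in 4 comparisons. The 3 BORA probe sets lie together at 0.46 to 0.70 in MLN8237 minus DMSO, whereas those of PLK1 fall on both sides of 0 and 1 NEDD9 probe set reaches 2.13 in siNT minus DMSO.

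Read across the 6 genes, the inhibitor and the siRNAs gave different orders of the arrays. With MLN8237, 6 of 6 were above DMSO, where 38.7% of all genes were, although PLK1 and TACC3 were above it by 0.01 each and lay below it under other choices of probe sets (down to -0.09 and -0.26). None was 1.5-fold from DMSO, a size that 0.482% of all genes reached in either direction. Against siNT 5 of 6 were higher with MLN8237, with 35.2% of all genes, and NEDD9 was the exception. In that comparison AURKA was 1.55-fold higher and was the 1 gene of the 6 past 1.5-fold, beside 0.641% of all genes. MLN8237 was the highest array for 5 of the 6 genes and for 8.55% of all genes. For PLK1, however, it was the highest in 1 of 3 probe sets, and for TACC3 in 2 of 6. The siAURKA-1 array was the lowest for AURKA, TPX2 and TACC3, and the siAURKA-2 array for BORA and PLK1. Among single probe sets, siAURKA-2 was the lowest in 1 of 3 for BORA and in 2 of 3 for PLK1. AURKA and BORA were the furthest of the 6 above DMSO with MLN8237, and their 4 single-gene probe sets ran from 0.46 to 0.70 there.

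Other genes of G2 and mitosis were set beside these 6, since AURKA, TPX2, BORA, PLK1 and TACC3 are transcribed in the same phase. Of 20 genes listed, 19 were measured. With MLN8237 18 of them were above DMSO, where 38.7% of all genes were, with a median of 0.20 beside 0.00 over all genes. At least 1.5-fold from DMSO were 0 of them, beside 0.482% of all genes. CENPE, a kinetochore motor (0.58), KIF20A, a kinesin of cytokinesis (0.54), ANLN, a scaffold of the contractile ring (0.41), and the checkpoint kinase gene BUB1 (0.39) were furthest. The MLN8237 array was the highest for 14 of the 19, and for 8.55% of all genes. BORA and AURKA thus lay among the upper values of this list, TPX2 (0.16) near its median, and PLK1 and TACC3 (0.01 each) near its lower end. Against siNT 15 of the 19 were higher with MLN8237, beside 35.2% of all genes, and the median was 0.12. In that comparison 3 were at least 1.5-fold higher, beside 0.641% of all genes. They were ANLN, PRC1 and CENPE, for which siNT itself was -0.37, -0.48 and -0.02 from DMSO.

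With siAURKA-1 the same list had a median of -0.50, with 17 of 19 genes below siNT, where 42.2% of all genes were. At least 1.5-fold lower were 6 of them, beside 4.48% of all genes. TOP2A (-1.36), CDK1 (-0.83), CENPE (-0.81) and the cytokinesis kinesin gene KIF23 (-0.80) were furthest. TPX2 (-0.38) and TACC3 (-0.21) were on the same side with smaller differences, while PLK1 (-0.04) and BORA (0.03) were near siNT. With siAURKA-2 the list's median was 0.03 and 0 of its genes were at least 1.5-fold lower, beside 3.11% of all genes. Above siNT were 13 of the 19, where 45.9% of all genes were. ANLN (0.61) lay past 1.5-fold on that side, as 1.96% of all genes did, but siNT itself was -0.37 from DMSO for it. Set against DMSO, ANLN was 0.24 higher on the siAURKA-2 array. Of the siRNA arrays, siAURKA-1 had both the lower AURKA signal and the lower median of this list. With 1 array per siRNA, a link between them was not tested.

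**Figure D3:**
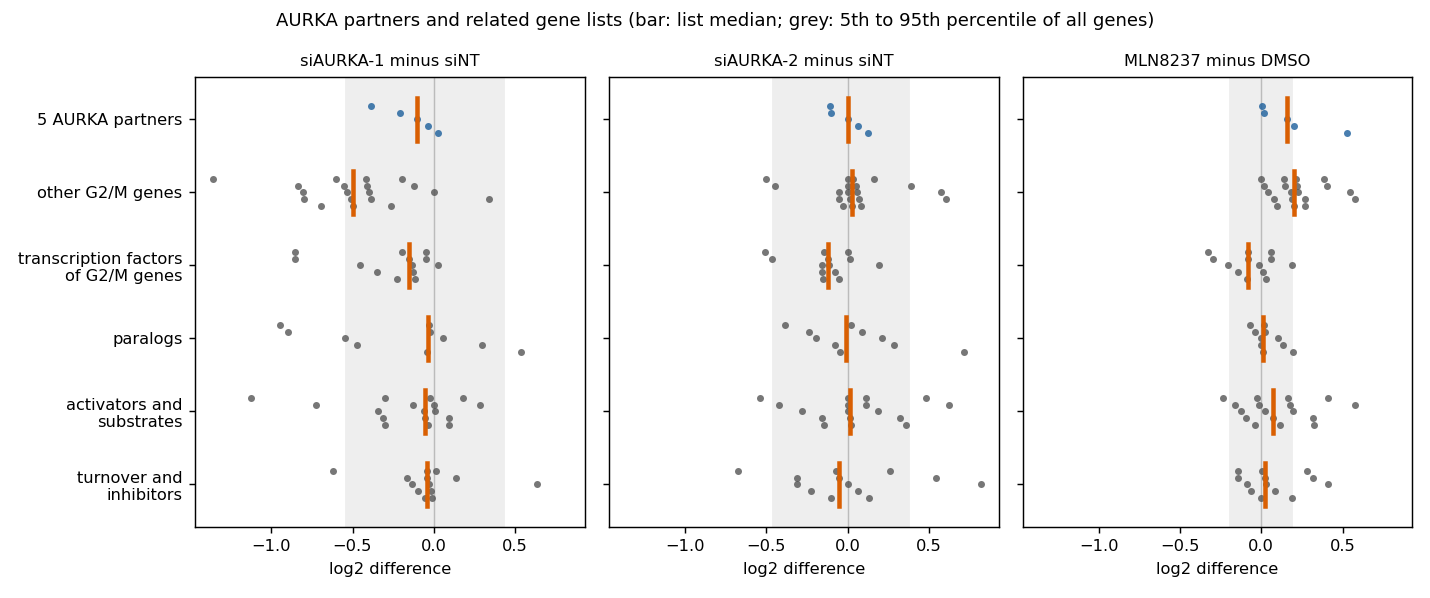
Log2 difference (x axis) of single genes (dots) in the 5 AURKA partners and in 5 related lists, with the list median as a bar and the 5th to 95th percentile of all genes in grey. The other G2/M genes have a median of -0.50 with siAURKA-1 and of 0.20 with MLN8237, where that of their transcription factors is -0.08.

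Transcription factors that act on such promoters formed another list, and all 13 were measured. Their median was -0.16 in the siAURKA-1, -0.12 in the siAURKA-2 and -0.08 in the MLN8237 comparison. In the last 2 of these the sign was opposite to that of the median of the G2 and mitotic genes. Between the controls (siNT minus DMSO) the median of the transcription factors was already -0.06, and in MLN8237 minus siNT it was -0.04. In the siAURKA-1 comparison 12 of 13 were below siNT, beside 42.2% of all genes. MYBL2, the B-MYB subunit of the MuvB activator (-0.86), and E2F1 (-0.85) were at least 1.5-fold lower, beside 4.48% of all genes. Both were also below DMSO with MLN8237 (-0.29 and -0.33), but siNT itself was -0.24 and -0.25 from DMSO for them. FOXM1, an activator of G2 and mitotic promoters, gave -0.16, -0.46 and 0.03 in the same 3 comparisons.

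The MLN8237 array was also set directly against the siRNA arrays, with no control array in between, so that any effect of transfection is part of these differences. AURKA was 16.0-fold higher with MLN8237 than on the siAURKA-1 array and 9.70-fold higher than on the siAURKA-2 array, the furthest of the 18239 genes in both. BORA was higher by 0.50 and 0.63, with 3 of 3 probe sets higher in each. TPX2 was higher by 0.56 and 0.11 and TACC3 by 0.25 and 0.04. PLK1 gave 0.05 and 0.12, with 2 of 3 probe sets higher in each, and NEDD9 was the exception at -0.06 and -0.29. Thus 5 of 6 genes were higher with MLN8237 than on either siRNA array, beside 35.4% and 34.7% of all genes. Of the 19 other G2 and mitotic genes, 19 were higher than on the siAURKA-1 array, with a median of 0.70, and 15 than on the siAURKA-2 array, with a median of 0.12.

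Paralogs were taken for comparison with the genes themselves. All 10 were measured, and their median was -0.04, -0.01 and 0.01 in the siAURKA-1, siAURKA-2 and MLN8237 comparisons. AURKB, the paralog that acts in the chromosomal passenger complex, was read by 1 probe set. On the siAURKA-1 array its difference from siNT was -0.95, which is at least 1.5-fold lower, beside 4.48% of all genes. Its difference on the siAURKA-2 array was smaller, at -0.39. PLK2, a stress-responsive member of the Polo-like family, lay on opposite sides of siNT on these arrays (-0.90 and 0.72), whereas PLK1 was near 0 on both.

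Further activators and substrates of Aurora A gave 17 measured genes of 20 listed, with medians of -0.05, 0.02 and 0.07 in the siAURKA-1, siAURKA-2 and MLN8237 comparisons. HMMR, which binds TPX2 and spindle microtubules, lay on opposite sides of siNT with siAURKA-1 and siAURKA-2 (-1.13 and 0.32), and was 0.41 above DMSO with MLN8237. AJUBA, a LIM protein that activates Aurora A, was lower than siNT with both siRNAs (-0.73 and -0.54), and the substrate gene LATS2 was 0.62 above siNT with siAURKA-2 and -0.05 from it with siAURKA-1. RASSF1, a substrate bound to microtubules, was the furthest with MLN8237 (0.58).

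Genes for the turnover, phosphatases and inhibitors of Aurora A were all measured (13), with medians of -0.04, -0.05 and 0.02 in the same order. CDC20, an activator of the anaphase-promoting complex, was -0.62 from siNT on the siAURKA-1 array and -0.07 from it on the siAURKA-2 array. PPP1R2, encoding inhibitor-2 of protein phosphatase 1, was above siNT with both siRNAs (0.64 and 0.82), but siNT itself was -0.68 from DMSO for it. GADD45A, an inhibitor of the kinase, was 0.41 above DMSO with MLN8237 and 0.55 above siNT with siAURKA-2, with -0.16 for siAURKA-1. PPP6R3, a regulatory subunit of the phosphatase that acts on Aurora A, was -0.68 from siNT with siAURKA-2 and 0.02 with siAURKA-1.

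Genes most like AURKA over the 5 arrays were found by the root mean square difference of their values, each gene centred on its median. AURKA was the only one of the 6 genes that spanned at least 1 on the log2 scale. ANO2, a calcium-activated chloride channel gene, was nearest at 1.10, followed by MYBL1, encoding A-MYB, at 1.13, NSMCE4A of the SMC5/6 complex at 1.15, DTL at 1.17 and APLN at 1.19. A flat gene would stand at 1.94 from AURKA. MYBL1 read 0.00, 0.22, 0.19, -1.89 and -0.65 with DMSO, MLN8237, siNT, siAURKA-1 and siAURKA-2, and ANO2 0.26, 0.36, 0.00, -1.58 and -0.99. All these values share the same 5 arrays.

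Over all genes, differences between the 5th and 95th percentile ran from -0.54 to 0.43 (siAURKA-1 minus siNT), from -0.46 to 0.37 (siAURKA-2 minus siNT), from -0.19 to 0.19 (MLN8237 minus DMSO) and from -0.25 to 0.35 (siNT minus DMSO). Differences of the 5 partners from siNT lay inside these ranges for both siRNAs, and BORA and NEDD9 lay outside the range for MLN8237, NEDD9 just so (0.20). Markers of fibroblasts, leukocytes and endothelial cells (14 measured of 15) differed by -0.16 to 0.13 in the 5 comparisons. The squamous identity of the line could not be checked by level, as the values are centred. Of 8 squamous markers 6 were measured, and KRT5 was -1.82 from siNT with siAURKA-2 but 0.32 above it with siAURKA-1. Below siNT were 6 of the 6 on the siAURKA-2 array, beside 42.3% of all genes. On the siAURKA-1 array 1 of the 6 was, beside 42.2%.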

How the data were processed

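Per the labels' protocols, biotin-labelled RNA from each of 5 treatments was hybridised to 1 Affymetrix GeneAtlas array, after 3' in vitro transcription. The submitters' processing notes name robust multi-array average (RMA). The deposited values were taken as log2 signal. No source used here gives the software, its version or the log base. The median over the arrays was exactly 0 in all 49386 probe sets, so the authors' values were centred. An identical value of 0 on 2 or more arrays occurred in 8 of the 18 probe sets used here. The number of arrays limits the precision.

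From these, 45259 probe sets with 1 gene symbol, updated by Entrez number through a RefSeq table, gave medians for 18239 genes (pandas 2.3.3, numpy 2.4.6). Probe sets with several symbols numbered 1327, and 2800 had no listed gene, 2713 of them not array controls. Differences between arrays were counted at 2-fold, or at 1.5-fold for lists, with no test. The counting was tested on simulated data with noise well below the siNT minus DMSO differences and with changes well past 2-fold. That checks the code and not the counts from these arrays. Named genes were the members, up to 4 per related list and comparison by size of difference, and the 5 nearest to a member spanning at least 1. Outside this rule, values were also given for HMMR and CDC20 with siAURKA-2 and for LATS2 and PPP6R3 with siAURKA-1. FOXM1 with siAURKA-1 and MLN8237, and BORA and PLK1 as the promoters shown, were chosen after their values were seen. The members and lists were chosen with earlier results of these data known. Alternatives changed the summary of probe sets, their type, array centring, the control and the threshold. Leaving out probe sets in turn and adding those with several symbols were chosen after seeing the data.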

Additional observations from a re-analysis of the deposited data

How the results depend on the processing

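The 30 differences of single genes were recomputed in 236 ways. Without replicates, a value counted as moved when it shifted by more than 0.10, a robust standard deviation of siNT minus DMSO over all genes. By this measure 195 stayed and 41 moved. Some of those that stayed could not move, since AURKA and TPX2 each rest on 1 probe set and other summaries return the same value. A reversal was defined only for results at least 2-fold. These were those of AURKA with siAURKA-1 and siAURKA-2, and 0 reversed, which says nothing of the other results. Signs changed in 37, within 12 results, none of them over 0.20 in size, with moves to or from exactly 0 counted as changes. All 13 of those in siNT minus DMSO were such moves, as were some with siAURKA-2. Centring each array on its median changed no value, as these medians were already 0, and these values are also counted among those that stayed. No paired analysis was possible because each group had 1 array. The median over the 6 genes was -0.15 with siAURKA-1, 0.18 with MLN8237 and -0.22 between the siRNAs. Taking the probe set with the largest range it was -0.34, 0.47 and -0.37, and with probe sets lacking _s_ or _x_ it was -0.0054 for siAURKA-1, a setting that drops TPX2. With MLN8237, BORA ranged from 0.46 to 0.70 over its probe sets. All genes at least 2-fold apart numbered 358 with siAURKA-1, 230 with siAURKA-2, 12 with MLN8237, 54 between controls and 394 between the siRNAs. At 1.5-fold these were 1286, 926, 88, 380 and 1398, and at 3-fold 68, 31, 1, 9 and 87.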
